A study of Mus musculus with 4 samples.

Results

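Heme-treated bone marrow cultures labelled Bach1 -/- were compared with heme-treated cultures labelled Bach1 +/+, to describe what still separates the genotypes when both have been given heme. The comparison rested on 2 of the study's 4 arrays. Probe sets that name a single gene gave 19938 genes. A gene is called at level below when the brighter array of the pair had a signal of at least 30.96, the median over the study (log2 4.95), and 10790 of the genes met this with heme. Genes at level were called when the arrays differed at least 2-fold.

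Marrow of mice on the B6 background was grown for 6 days with 20 ng/ml GM-CSF, which turns marrow progenitors into a mixture of macrophages and dendritic-type cells. The medium was IMDM with 10% serum. Heme was then added at 40 µM (written µm in the labels), or its vehicle, 0.15 M NaCl with 10% NH4OH, and the cells that adhered 24 hours later gave the RNA. The 4 groups were therefore Bach1 +/+ with vehicle, Bach1 +/+ with heme, Bach1 -/- with vehicle and Bach1 -/- with heme, all grown in GM-CSF. Each group held 1 array, so no difference has a replicate check, an error or a p-value. The labels do not say how many mice gave the marrow, whether it was pooled, or whether the heme and vehicle cultures of a genotype came from the same marrow.

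Bach1 is a transcriptional repressor that pairs with small MAF proteins on DNA and holds down genes for heme breakdown, iron export and antioxidant defence. Heme binds Bach1, takes it off DNA and leads to its degradation, so both treatment with heme and loss of the gene relieve the repression. The best known target is Hmox1, which encodes heme oxygenase-1, the enzyme that opens the heme ring and frees its iron.

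The arrays were alike in brightness, with medians between 30.43 and 31.39, and the log2 signals of both heme arrays correlated with r = 0.981 over 35556 probe sets. Some well-known macrophage genes were bright in both genotypes, while others, given below, were 2-fold apart. With heme, Lyz2, which encodes lysozyme, had a signal of 9990 in wild type against 10122 in the labelled knockout, and Csf1r, the receptor for macrophage colony stimulating factor, had 1116 and 1011. The macrophage surface markers Itgam and Adgre1 differed by -0.07 and 0.31 on the log2 scale. The probe set of Bach1 gave 264 in wild type against 204 in the labelled knockout with heme, and 212 and 211 in vehicle. The labels do not say which exons were deleted or which ones the probes cover, so this signal does not check the genotype. The arrays measure bulk RNA, in which fewer cells of a type and less RNA per cell cannot be told apart.

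With heme, the labelled knockout was higher by 2-fold or more for 56 genes (0.519% of those at level) and lower for 105 (0.973%). The median difference over genes at level was 0.01 on the log2 scale, and 47.9% of them lay below 0. The larger differences were mostly on the lower side. At 3-fold the counts were 5 higher and 28 lower, and at 4-fold 3 higher and 10 lower. The 5 higher genes at 3-fold were Rgs1, Bex1 and the microRNA probe sets Mir202, Mir103-2 and Mir30e. Rgs1, Bex1 and Mir202 were past 4-fold, but Bex1 and Mir202 had wild-type heme signals of 9.4 and 4.9, below level, so their folds rest on low signals. With 32 added to every value Bex1 was 1.77-fold, Mir202 1.88-fold and Mir30e 1.55-fold higher. The 2-fold threshold had genes close on either side. Tmem140 and Usp6nl, at 2.0019-fold and 2.005-fold higher, were just inside it (1.77-fold and 1.62-fold with 32 added), and Mpg and Zfp580, at 1.9947-fold and 1.994-fold, just outside. On the lower side Il1f9 and Them4 were just inside at 2.0115-fold and 2.0223-fold (1.88-fold and 1.42-fold with 32 added), and Tiam1 and Dnaaf1 just outside at 1.9976-fold and 1.9871-fold.

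The vehicle arrays share no array with the heme arrays and were read as a second pair of the same genotypes. In that pair the labelled knockout was higher for 57 genes (0.525% of 10859 at level) and lower for 124 (1.14%). Of the genes lower with heme, 53 were also lower in vehicle, which is 50.5% of the heme calls and 42.7% of the vehicle calls. Of the genes higher with heme, 13 were also higher in vehicle, 23.2% of the heme calls and 22.8% of the vehicle calls. A further 51 lower and 41 higher genes were not called in vehicle, and 2 higher genes and 1 lower gene were 2-fold apart the opposite way there (Ms4a7 and Polr2k higher with heme, Phtf1os lower). Falling short of the threshold in vehicle does not show that a gene's difference depends on heme, and the difference between the pairs was not tested. The genes lower with heme had a median vehicle difference of -1 on the log2 scale, and 92 of 105 had the same sign. The genes higher with heme had a median of 0.44, and 43 of 56 had the same sign. Over the 10494 genes at level in both pairs the differences correlated with r = 0.385, a description across genes, which are not independent replicates. Adding 32 to every value before taking log2, which shrinks differences between low signals, left 61 of the 161 called genes at 2-fold, and 40 of the 69 called genes that the naming rule took. Where the fold went under 2-fold or shrank by over 1.5 times, the value with 32 added stands beside the gene.

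**Figure D1:**
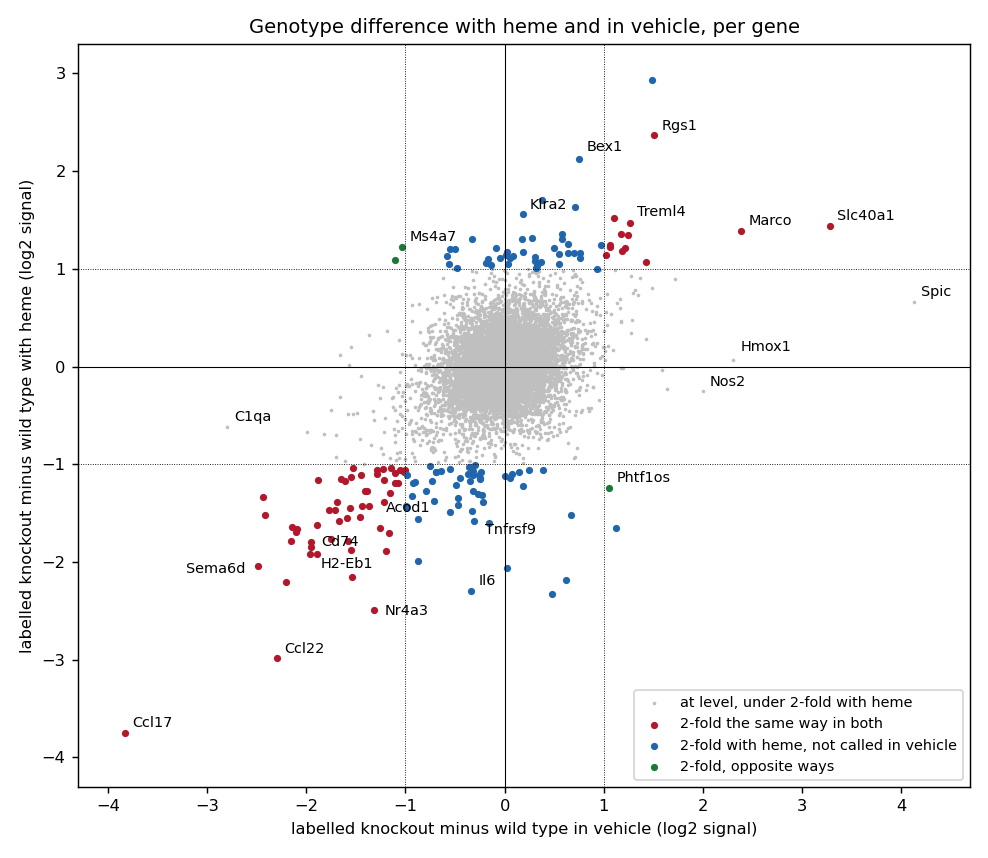
Each point is a gene at level with heme, with the genotype difference in vehicle on the horizontal axis and with heme on the vertical axis, both as log2 signal of the labelled knockout minus wild type, and dotted lines at 2-fold. The 66 red genes were at least 2-fold apart the same way in both conditions, with Ccl17 and Ccl22 at the far lower left and Slc40a1 and Marco at the right, while Hmox1 and Nos2 lie far to the right near 0 on the heme axis and Spic far to the right at 0.66; blue genes past a vertical dotted line were below level in vehicle.

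The position of all 4 arrays gave a second description. Both wild-type arrays lay above both labelled knockout arrays for 83 of the 105 lower genes, against 18.2% of genes at level. Both labelled knockout arrays lay above both wild-type arrays for 39 of the 56 higher genes, against 17.1%. The heme comparison used 2 of these arrays, so the called genes were chosen with the heme arrays already in this order. Genes at level were not chosen so, which makes their shares an unlike baseline. The orders are given as a description. The wild-type heme array alone stood at least 2-fold above each of the other 3 arrays for 18 genes and at least 2-fold below them for 8. The labelled knockout heme array alone stood above for 5 genes (Abcb6, Mir103-2, Mir202, Niban1 and Treml4) and below for 4 (AI504432, Ccn3, Gal and Tnfsf8).

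Genes of the MHC class II pathway, which loads peptides for display to CD4 T cells, had the lowest median of the 39 gene lists compared when all measured members are taken. Of 15 measured members, 14 were at level, 6 were at least 2-fold lower with heme and none was higher, against 0.973% lower over all genes. The median over measured members was -0.56 with heme and -1.09 in vehicle, beside 0.00 and 0.01 over all genes. Over members at level the median with heme was -0.76, and the 6 mast cell, basophil and eosinophil markers at level had a lower one, -0.79.

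H2-Eb1, the beta chain of the surface molecule I-E, had signals of 874 and 721 in wild type with vehicle and heme, and 224 and 191 in the labelled knockout. It was 3.78-fold lower with heme. H2-Aa and H2-Ab1 encode the alpha and beta chains of I-A. H2-Aa had 2792 and 2233 in wild type against 751 and 725 in the labelled knockout, a heme difference of -1.62. H2-Ab1 had 2088 and 1607 against 656 and 538, a difference of -1.58. Cd74, the invariant chain that guides class II molecules through the cell, had 3399 and 2879 against 877 and 829, a difference of -1.80. For each of these chain genes both wild-type arrays were above both labelled knockout arrays, and heme shifted the signals within a genotype far less than genotype did.

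Ciita encodes the coactivator that class II genes need for transcription. Its signals were 98.8 and 69.8 in wild type with vehicle and heme and 36.2 and 32.4 in the labelled knockout, 2.15-fold lower with heme, and with 32 added to every value it was 1.58-fold lower. The factors that sit on class II promoters differed less: Rfx5 had 70.5 in wild type against 61.9 in the labelled knockout with heme (-0.19), Rfxank differed by -0.36 and Rfxap by -0.04. Rfx5 and Rfxap were picked after their values were seen. The accessory genes were spread out. H2-Ob, a chain of the peptide-loading modulator H2-O, was 2.42-fold lower (1.82-fold with 32 added), and its partner H2-Oa had 127 and 65.4 with heme, a difference of -0.95. H2-DMa, a chain of the peptide exchanger H2-M, had 1211 and 861 in wild type against 569 and 583 in the labelled knockout, so that its difference was -1.09 in vehicle and -0.56 with heme. None of the 13 measured MHC class I genes was 2-fold apart, and their median was -0.03.

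Short promoter stretches of H2-Eb1, H2-Aa, H2-Ob and H2-Oa are shown because these class II genes carry a common arrangement of letters close to the start. H2-Eb1, H2-Aa and H2-Ob were called lower, while H2-Oa, at -0.95, was not. Class II promoters are known for an X box, bound by the RFX complex, and a Y box, bound by NF-Y, a fixed distance apart. The arrangement searched was GNAAC, then 20 to 35 bases, then TGATTGG, on either strand, and it was written after these sequences had been read. The sequences are from RefSeq, GRCm38.p6, read 5′ to 3′ on the gene's own strand, and capitals mark both parts of the match. They lie at chr17:34305764-34305818 on the plus strand for H2-Eb1, chr17:34287861-34287916 on the minus strand for H2-Aa, chr17:34238806-34238858 on the plus strand for H2-Ob and chr17:34092291-34092346 on the plus strand for H2-Oa.
H2-Eb1: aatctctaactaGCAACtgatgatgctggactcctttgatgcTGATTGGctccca
H2-Aa: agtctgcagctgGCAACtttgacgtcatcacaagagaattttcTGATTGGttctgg
H2-Ob: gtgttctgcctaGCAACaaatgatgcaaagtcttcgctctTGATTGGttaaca
H2-Oa: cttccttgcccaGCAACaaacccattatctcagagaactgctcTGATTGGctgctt

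Counted from the transcription start, the capitals span bases -91 to -55 in H2-Eb1, -81 to -44 in H2-Aa, -87 to -53 in H2-Ob and -76 to -39 in H2-Oa, and the gaps between them are 25, 26, 23 and 26 bases. In windows from 250 bases before to 50 after the start, 6 of 13 genes of the class II list with a window held the arrangement. H2-DMb1 and H2-Eb2, not shown, held it as well and were not called. H2-Ab1, Cd74 and Ciita, which were called lower, were not among the 13 genes with a window. Over all genes with a window, 130 of 27025 (0.481%) held it. Among genes at level it was in 0.678% of 8700 windows, in 3 of 75 genes lower with heme (H2-Aa, H2-Eb1 and H2-Ob) and in 0 of 40 genes higher. A match is a description of letters, and whether factors sat on it was not measured.

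Markers of dendritic cells leaned the same way. Of 29 measured, 20 were at level, 5 were at least 2-fold lower, beside 0.973% of all genes at level, and none was higher. The median was -0.35 with heme and -0.39 in vehicle. Summed over the 29 markers the signal was 5577 in wild type against 2917 in the labelled knockout with heme, and 6852 and 3317 in vehicle. Ccl17 and Ccl22 made up much of that gap, and the other 27 markers summed to 3873 and 2755 with heme and to 4894 and 3121 in vehicle.

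Ccl17 and Ccl22 encode the chemokines that draw CCR4-bearing T cells and are made by mature dendritic cells and alternatively activated macrophages. Ccl17 had 1520 and 1019 in wild type with vehicle and heme and 107 and 76.0 in the labelled knockout, the largest difference of the comparison among named genes at -3.74. Ccl22 had 438 and 686 against 89.0 and 86.4, so it was brighter with heme in wild type alone, and its genotype difference was -2.30 in vehicle and -2.99 with heme. Ccr7, the receptor that takes dendritic cells to lymph nodes, had 90.7 and 119.5 against 35.2 and 44.6 (2.68-fold lower with heme, 1.98-fold with 32 added). Cd83, a maturation marker, had 164 and 156 against 98.6 and 69.4, 2.25-fold lower (1.86-fold with 32 added). Kmo, an enzyme of tryptophan breakdown, had 56.5 and 50.1 against 13.2 and 15.5, 3.23-fold lower, or 1.73-fold with 32 added.

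The other dendritic cell markers at level were under 2-fold. Of all 20 at level, 15 lay below 0 with heme and 5 above, the highest at 0.29. Irf4, a transcription factor of one dendritic branch, had 158 and 157 in wild type against 87.3 and 90.2 in the labelled knockout, a heme difference of -0.80. The NF-kB adaptor Traf1 differed by -0.91, the surface glycoprotein Cd24a by -0.77 and the actin bundler Fscn1 by -0.70. Chosen after their values were seen, Itgax (CD11c) had 741 and 547 with heme, the costimulatory receptor gene Cd86 had 127 and 90.5, and Irf8, the factor of the other branch, differed by 0.20. Flt3, Zbtb46 and Dpp4 were below level on both heme arrays.

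**Figure D2:**
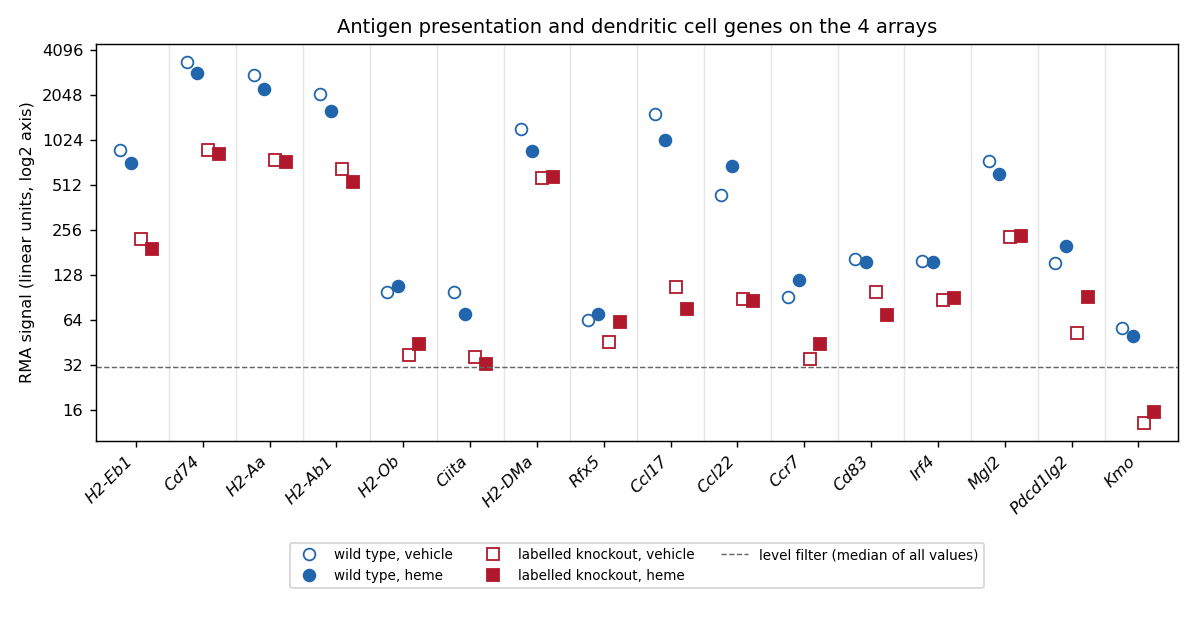
Signals on all 4 arrays (linear units on a log2 axis) for class II genes at the left and dendritic cell and alternative activation genes at the right; open symbols are vehicle, filled symbols heme, circles wild type and squares the labelled knockout. For H2-Eb1, Cd74, H2-Aa, H2-Ab1, Ccl17, Ccl22 and Kmo both squares lie well below both circles, whereas for H2-DMa and Rfx5 the filled symbols lie closer together than the open ones.

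Genes linked to IRF4 and to alternative activation by IL-4 or GM-CSF had 24 measured members, of which 20 were at level. With heme 7 were at least 2-fold lower, beside 0.973% of all genes, and none was higher. In vehicle 8 were lower, and 1, Arg1, was higher. Their median was -0.50 with heme and -0.59 in vehicle. Besides both chemokines, the lower genes included Mgl2, a galactose-binding lectin of dendritic cells and alternatively activated macrophages, with 744 and 609 in wild type against 231 and 233 in the labelled knockout. Pdcd1lg2, the PD-L2 ligand that restrains T cells, had 153 and 199 against 52.4 and 90.9, 2.19-fold lower with heme (1.88-fold with 32 added). Dcstamp, needed for the fusion of macrophages into giant cells, had 217 and 186 against 74.0 and 68.3, and its relative Ocstamp differed by -0.96. Arg1, the arginase often used as a marker of alternative activation, went the other way: it had 1362 and 857 in wild type against 2778 and 1434 in the labelled knockout, a heme difference of 0.74.

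Cish and Socs2 encode feedback inhibitors that are induced when cytokine receptors signal through JAK2 and STAT5, as the GM-CSF receptor does. Cish had 280.5 and 402 in wild type with vehicle and heme and 122 and 108 in the labelled knockout, 3.71-fold lower with heme. Socs2 had 313 and 314 against 167 and 138, 2.27-fold lower. A list of GM-CSF receptor and JAK-STAT genes was drawn up after these values were seen, so it supports nothing beyond them. Of its 14 members, all at level, 3 were at least 2-fold lower, against 0.973% of all genes at level, and none was higher. The list's median was -0.33 with heme and -0.37 in vehicle. Cish and Socs2, already seen, were among the 3 lower genes. The third of them was Jak2, the kinase bound to the GM-CSF receptor, with 454 and 485 in wild type against 132 and 175 in the labelled knockout. The receptor chains Csf2ra and Csf2rb differed by 0.08 and -0.25, Stat5a and Stat5b by -0.06 and 0.04, and Jak1 by -0.004.

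Inflammatory genes called lower showed another pattern, in which the wild-type heme array stood out. Of 24 inflammatory cytokine genes measured, 16 were at level, 3 were at least 2-fold lower with heme (0.973% over all genes) and none was higher, with a median of -0.20 with heme and -0.16 in vehicle. In vehicle 1 was called lower. Il6, a cytokine of the acute phase response, had signals of 7.8 and 124 in wild type with vehicle and heme and 6.2 and 25.3 in the labelled knockout. It was 4.91-fold lower with heme, or 2.73-fold with 32 added, and both vehicle arrays were below level. Il1f9, an IL-1 family cytokine of epithelia and myeloid cells, had 70.5 and 432 against 57.3 and 215, 2.01-fold lower with heme (1.88-fold with 32 added). Tnf, which encodes tumour necrosis factor, had 280 and 478 against 191 and 230.3, 2.07-fold lower with heme (1.94-fold with 32 added). These genes were brighter with heme in both genotypes, and the brightest array was wild type with heme. Il1a and Il1b, the classical IL-1 cytokines, were likewise brightest in wild type with heme and had differences of -0.91 and -0.67, and Osm, oncostatin M, differed by -0.86. Il18, whose product needs inflammasome cleavage, had 92.4 and 149 with heme, a difference of 0.69 in the opposite direction.

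Chemokine genes showed both patterns side by side. Among 18 CC chemokines and receptors, 15 were at level, 5 were at least 2-fold lower and 1 higher. The shares over all genes at level were 0.973% lower and 0.519% higher. Ccl5, which draws T cells and monocytes, had 148 and 285 in wild type with vehicle and heme and 107 and 112 in the labelled knockout, so the wild-type heme array was apart from the other 3. Ccl4 had 488.5 and 488 against 314 and 233, 2.10-fold lower with heme (1.97-fold with 32 added), and its wild-type arrays were level. The higher gene was Ccrl2, a chemerin-binding receptor without chemotactic signalling, with 62.7 and 45.1 against 143 and 102, 2.27-fold higher with heme (1.74-fold with 32 added) and 1.18 higher in vehicle on the log2 scale. Among 17 CXC genes 10 were at level and 3 were lower. Cxcl3, a neutrophil attractant, had 52.0 and 240.4 in wild type against 44.3 and 96.7 in the labelled knockout. Cxcr2, the neutrophil receptor for such chemokines, had 68.7 and 208.5 against 77.9 and 89.6, 2.33-fold lower with heme (1.98-fold with 32 added). Cxcl16, a chemokine that is also a scavenger receptor, had 406 and 250.5 against 140.4 and 122, 2.06-fold lower with heme (1.84-fold with 32 added), and was lower in vehicle as well (-1.53).

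NF-kB is the transcription factor family that drives many of these cytokines, and its inhibitors are its own targets. Of 18 NF-kB subunits and inhibitors, all at level, 1 was at least 2-fold lower, beside 0.973% of all genes, and none was higher. Below 0 lay 13 of them, and the median was -0.35 with heme and -0.22 in vehicle. The gene past 2-fold was Tnfaip3, which encodes the inhibitor A20, with 103 and 219.8 in wild type against 72.8 and 94.6 in the labelled knockout (2.32-fold, 1.99-fold with 32 added). Nfkbia, the inhibitor IkB-alpha, had 413 and 831 against 301 and 423, a difference of -0.97. Nfkbie, the inhibitor IkB-epsilon, had 49.5 and 107 against 46.2 and 56.2, a difference of -0.93. Tnfrsf9, the costimulatory receptor 4-1BB, had 124 and 340.1 against 100.1 and 113.5, a difference of -1.58 with heme and -0.31 in vehicle. Acod1, which makes itaconate in activated macrophages, had 53.2 and 334 against 36.4 and 119, 2.81-fold lower with heme and -0.55 in vehicle.

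The motif GGANTTTCC, a common form of the NF-kB element, was searched on both strands in the same promoter windows, and 4 matches are shown because they lie in lower genes of this group. It was present in 1.66% of 8700 genes at level, in 5 of 75 lower genes (Acod1, Cxcl3, Hemk1, Il6 and Tnfaip3) and in 1 of 40 higher genes (Ccrl2). Capitals mark the match on the gene's strand, so that it may read as the reverse complement. The RefSeq GRCm38.p6 positions are chr5:30013051-30013099 on the plus strand for Il6, chr5:90786009-90786057 on the plus strand for Cxcl3, chr10:19015411-19015454 on the minus strand for Tnfaip3 and chr14:103046907-103046955 on the plus strand for Acod1.
Il6: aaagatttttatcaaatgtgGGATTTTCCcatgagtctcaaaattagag
Cxcl3: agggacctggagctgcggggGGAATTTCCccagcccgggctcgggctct
Tnfaip3: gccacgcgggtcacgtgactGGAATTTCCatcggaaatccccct
Acod1: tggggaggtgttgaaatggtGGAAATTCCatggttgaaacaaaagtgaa

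The matches begin at base -43 from the transcription start in Il6, -72 in Cxcl3, -24 in Tnfaip3 and -85 in Acod1. The 9-letter element of BACH1 with small MAF proteins, TGANTCAGC, was in 1.41% of the 8700 windows, in 1 of 75 lower genes (Zfp36l1) and in 0 of 40 higher genes. The shorter AP-1 element TGANTCA, whose letters it contains, was in 6.34%, in 7 of 75 lower and in 3 of 40 higher genes. The STAT element TTCNNNGAA was in 7.98%, in 10 of 75 lower and in 5 of 40 higher genes, and ATTGG, the core of the Y box, in 41.8%, in 30 of 75 lower and in 20 of 40 higher genes. The windows cover promoters alone, and the known BACH1 sites of several targets lie farther away.

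**Figure D3:**
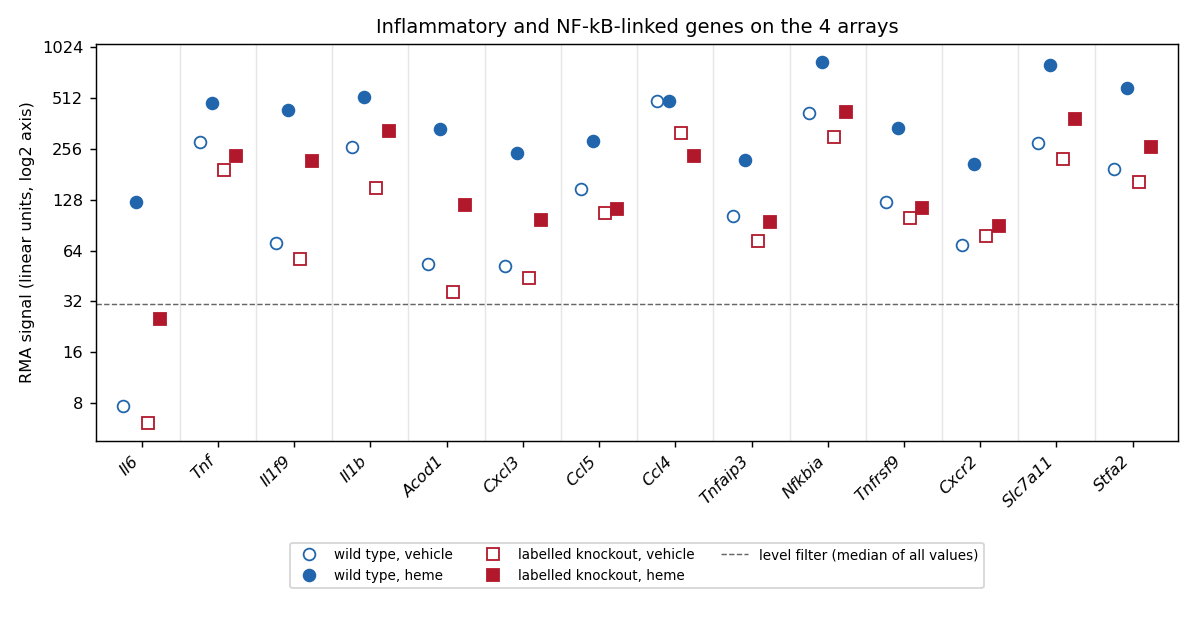
Signals on all 4 arrays (linear units on a log2 axis) for inflammatory and NF-kB-linked genes, with symbols as in the plot of antigen presentation genes. The filled circle, wild type with heme, is the highest point for every gene drawn except Ccl4, where it lies beside wild type with vehicle (488 and 488.5); Il6, Il1f9, Acod1, Cxcl3, Tnfaip3, Tnfrsf9, Cxcr2, Slc7a11 and Stfa2 are among the 18 genes for which it stood at least 2-fold above the other 3 arrays.

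Immediate early genes, which answer to receptor signals within minutes, had 26 of 27 measured members at level, 1 lower and none higher. The share lower over all genes at level was 0.973%. Their median was -0.26 with heme and -0.10 in vehicle. Nr4a3, an orphan nuclear receptor, had 53.5 and 81.3 in wild type against 21.5 and 14.5 in the labelled knockout, 5.61-fold lower with heme and 2.44-fold with 32 added. Egr2, which restrains T cell activation and is a marker of alternatively activated macrophages, had 2026 and 1179 against 1008 and 610, a difference of -0.95. Fosb and Fos lay the other way at 0.93 and 0.71. Errfi1, an inhibitor of the EGF receptor, had 334 and 406 against 112 and 118, 3.45-fold lower. Il1r2, the decoy receptor that soaks up IL-1, had 258 and 344 against 88.4 and 93.4, 3.68-fold lower. Asgr2, a chain of the asialoglycoprotein receptor, had 305 and 330.2 against 78.7 and 91.7, 3.60-fold lower. These 3 were also lower in vehicle, at -1.58, -1.55 and -1.96. Ahr, the receptor for dioxin and tryptophan metabolites, and Tarm1, a myeloid receptor of the leukocyte receptor family, were picked after their values were seen. Ahr had 164 and 233 against 50.1 and 84.4, and Tarm1 702 and 1369 against 209 and 402.

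The labelled knockout heme array was the one apart for another few genes. Gal, which encodes the neuropeptide galanin, had 182, 215 and 163 in wild type with vehicle, wild type with heme and labelled knockout with vehicle, and 70.9 in labelled knockout with heme, 3.03-fold below wild type with heme. Ccn3, a secreted matrix protein, had 497.5 and 309 in wild type against 171 and 69.6 in the labelled knockout. Tnfsf8, the CD30 ligand, had 105 and 77.6 against 57.4 and 26.3 (1.88-fold lower with 32 added), and was picked after its values were seen. Scd1, the desaturase that makes monounsaturated fatty acids, had 279 and 292 in wild type, 231 in the labelled knockout with vehicle and 118 with heme, 2.46-fold lower. It was the lower of 2 called genes among 19 genes of lipid handling, all at level, whose median was 0.03. The shares over all genes at level were 0.973% lower and 0.519% higher.

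Genes of cell contact called lower with heme were lower in vehicle too. Of 26 genes of integrins and adhesion, 21 were at level, 3 were at least 2-fold lower in either condition and none was higher, with a median of -0.07 with heme. The share lower over all genes was 0.973% with heme and 1.14% in vehicle. Sema6d, a membrane semaphorin, had 167 and 82.5 in wild type against 29.7 and 20.1 in the labelled knockout, 4.11-fold lower with heme or 2.20-fold with 32 added. Jaml, an adhesion molecule of leukocytes that cross epithelia, had 131 and 128 against 35.3 and 33.7, 3.79-fold lower or 2.43-fold with 32 added. Flrt3, a guidance molecule with leucine-rich repeats, had 50.4 and 49.9 against 11.8 and 15.8, 3.16-fold lower or 1.71-fold with 32 added. The integrin chains themselves stayed closer to 0: Itgb3 differed by 0.65, Itgb7 by -0.56 and Itgav by 0.51.

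Of 16 protease inhibitors and kallikreins, 13 were at level, 5 were at least 2-fold lower with heme and 4 in vehicle, and none was higher, while 0.973% of all genes at level were lower with heme. The median was -0.14 with heme and -0.30 in vehicle over measured members, and -0.52 with heme over those at level. Klk1b9, a glandular kallikrein, had 856 and 577 in wild type against 186 and 125.5 in the labelled knockout, 4.60-fold lower. It belongs to a family of near-identical genes, whose probes may share signal. The stefins are small inhibitors of cysteine proteases that neutrophils and macrophages make, and they are a family of close copies too. Stfa2 had 194 and 581 against 163 and 262, with wild type with heme apart. Csta3 had 12.8 and 34.1 against 7.0 and 8.6, 3.97-fold lower or 1.63-fold with 32 added, and its signal reached the level threshold in wild type with heme alone. Csta2 had 150 and 171 against 69.5 and 74.9, 2.29-fold lower (1.90-fold with 32 added). Serpinb2, the plasminogen activator inhibitor of macrophages, had 114 and 177.5 against 37.5 and 78.9, 2.25-fold lower (1.89-fold with 32 added). Mmp14, a membrane-bound matrix protease, had 245 and 357 against 78.3 and 160.4, and was the sole called gene among 16 matrix metalloproteinases and inhibitors.

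The genes of heme and iron handling and known Bach1 targets had 2 members called higher with heme and 3 in vehicle. Of 31 measured, 27 were at level, the labelled knockout was at least 2-fold higher for 2 and lower for none, against 0.519% higher over all genes (0.525% in vehicle), and the median was 0.08 with heme and 0.17 in vehicle. Hmox1 had 9881 in wild type against 10330 in the labelled knockout with heme, where the vehicle arrays had 1827 and 9047. It stood above 99.93% of probe sets on the wild-type heme array and 99.955% on the labelled knockout heme array, where the brightest values were 15660 and 15976. Slc48a1, the heme transporter of the lysosome and picked after its values were seen, differed by 0.16 with heme and 1.02 in vehicle.

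The genes called with heme were Slc40a1 and Abcb6, and those called in vehicle Hmox1, Slc40a1 and Slc48a1. Slc40a1 encodes ferroportin, the sole known iron exporter, and had 52.7 and 290 in wild type with vehicle and heme and 512 and 787 in the labelled knockout. Its difference was 3.28 in vehicle and 1.44 with heme. Abcb6, a porphyrin transporter, had 27.8, 28.3 and 25.3 on the other 3 arrays and 58.0 in the labelled knockout with heme. It was 2.05-fold higher there, 1.49-fold with 32 added, and the 3 lower signals were below level. Flvcr2, a member of the heme exporter family, differed by 0.82, Abcg2, a porphyrin exporter, by 0.62 and Slc11a2, the iron importer DMT1, by 0.56. Of the antioxidant genes under NRF2, 30 of 32 measured were at level, none was 2-fold higher and 1 was lower, against 0.973% lower over all genes. Their median was 0.06. The lower gene was Slc7a11, the cystine importer, with 277 and 799 in wild type against 222 and 381 in the labelled knockout, 2.10-fold lower with heme. Nqo1, a quinone reductase, differed by -0.73 and Gsta3, a glutathione transferase, by 0.87. None of the 11 measured BACH, CNC and small MAF factors was 2-fold apart, and their median was -0.12.

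Spic is the transcription factor required for the macrophages of the splenic red pulp, which take up old red cells and recycle their iron. Spic had 17.0 and 429 in wild type against 298 and 678 in the labelled knockout, so that a difference of 4.13 in vehicle stood beside 0.66 with heme. Vcam1, another marker of these cells, was below level with signals from 12.1 to 13.5. Of 17 red pulp macrophage markers 13 were at level, and the labelled knockout was at least 2-fold higher for 3 and lower for none, against 0.519% higher over all genes. In vehicle 4 were called higher (Spic, Treml4, Slc40a1 and Hmox1), against 0.525%. The median was 0.18 with heme and 0.07 in vehicle. Besides Slc40a1, the higher genes were Treml4, a receptor that binds dead cells, and Siglec1, the sialic acid receptor CD169. Treml4 had 16.4 and 118 in wild type against 39.3 and 328 in the labelled knockout, brighter with heme in both genotypes and brightest in the labelled knockout. Siglec1 had 127 and 59.4 against 206 and 133, dimmer with heme in both genotypes, and was 2.24-fold higher with heme (1.80-fold with 32 added). Mrc1, the mannose receptor, and Axl, a receptor for dying cells, differed by 0.70 and 0.56. Cd163, Cd5l and C6 were below level.

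Surface receptors of macrophages were split. Marco, a scavenger receptor for bacteria and particles, had 115.5 and 342 in wild type against 605 and 898 in the labelled knockout, 2.62-fold higher with heme. Among the 25 measured members of the list of scavenger receptors and C-type lectins, Marco was the sole one called higher and Mgl2 the sole one lower. Siglec1, Asgr2 and Cxcl16, called as well and described in other paragraphs, were not in that list. The shares over all genes at level were 0.519% higher and 0.973% lower. Clec4e, the receptor Mincle for mycobacterial lipids, had 184 and 661 in wild type against 156 and 395 in the labelled knockout, a difference of -0.74. Of 11 Fc receptor genes 6 were at level. Fcgr4, an activating receptor for IgG, had 170 and 118 against 403 and 298, 2.54-fold higher with heme, whereas Fcrls, an Fc receptor-like scavenger protein, had 341 and 134.5 against 76.7 and 39.1, 3.44-fold lower. Fcgr1, the high-affinity IgG receptor, had 237 and 83.3 against 84.7 and 59.7, with -1.48 in vehicle and -0.48 with heme. Fcgr2b and Fcgr3 differed by -0.16 and 0.01.

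The complement genes C1qa, C1qb and C1qc, which encode the chains of C1q, were brightest in wild type with vehicle. C1qc had 911 and 295 in wild type against 170 and 103 in the labelled knockout, 2.87-fold lower with heme and 5.36-fold lower in vehicle. C1qa had 213 and 48.9 against 30.6 and 31.9, a difference of -2.80 in vehicle and -0.62 with heme. C1qb had 322 and 90.6 against 80.7 and 56.9, 3.99-fold lower in vehicle and a difference of -0.67 with heme. The genotypes were thus closer with heme than in vehicle for C1qa, C1qb and C1qc, with both heme signals of C1qa near the level threshold. Cd59a, the membrane inhibitor of the complement pore, had 22.6 and 22.5 in wild type against 48.5 and 64.3 in the labelled knockout, 2.86-fold higher with heme or 1.77-fold with 32 added. The 20 complement genes measured had a median of -0.04 with heme and -0.29 in vehicle.

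Rgs1, a regulator of G protein signalling, had the largest increase with heme among genes other than small RNA. Proteins of its family shorten the signals of chemokine and other receptors. Rgs1 had 555.5 and 160.5 in wild type against 1579 and 827 in the labelled knockout, 5.15-fold higher with heme and 2.84-fold in vehicle. Rgs2 had 540 and 274 against 809 and 701, 2.56-fold higher with heme. Both genes were dimmer with heme in wild type by more than in the labelled knockout, and wild type with heme was the lowest array. Of 11 members of the family measured, 5 were at level, 2 of these lay below 0, and Rgs3 differed by -0.64. The family's median was -0.03 over measured members and 0.15 over those at level.

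Bex1, a small adaptor known from neurons, also had its lowest signal in wild type with heme, with 107 and 9.4 in wild type against 181 and 41.1 in the labelled knockout. It was 4.37-fold higher with heme, or 1.77-fold with 32 added, and its wild-type heme signal was below level. Further genes for which the wild-type heme array alone was at least 2-fold below the other 3 were Tlr8, a sensor of RNA in endosomes, Pros1, the ligand of dead-cell receptors protein S, and Slco2b1, an organic anion carrier. Picked after their values were seen, they had 111, 41.2 and 27.0 in wild type with heme and 241, 88.7 and 59.4 in the labelled knockout with heme. With 32 added they were 1.91-fold, 1.65-fold and 1.55-fold higher. Their vehicle differences were 0.30, -0.05 and 0.01.

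Klra2, a Ly49 receptor, was brightest in the labelled knockout with heme. It had 81.0 and 62.3 in wild type against 92.0 and 183 in the labelled knockout, 2.94-fold higher with heme and 0.18 in vehicle on the log2 scale. Niban1, a stress-induced regulator of translation, had 103 and 97.0 against 116 and 239, 2.46-fold higher. Fabp7, a fatty acid binding protein, had 144 and 90.3 against 326 and 230.5, 2.55-fold higher with heme and above wild type in vehicle too (1.17). Ltc4s, which makes leukotriene C4, had 153 and 114 against 311 and 252, 2.21-fold higher (1.94-fold with 32 added). Glb1l, a relative of beta-galactosidase, was 2.49-fold higher with heme (1.69-fold with 32 added), Mterf4, a mitochondrial ribosome factor, 2.48-fold (1.57-fold), Pgm2l1, a glucose bisphosphate synthase, 2.38-fold (1.95-fold) and Srsy 2.36-fold (1.68-fold). Their vehicle differences were 0.27, -0.33, 0.64 and 0.97. Srsy had 19 probe sets, of which the brightest stood for it, and averaged over them its difference with heme was 1.19.

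**Figure D4:**
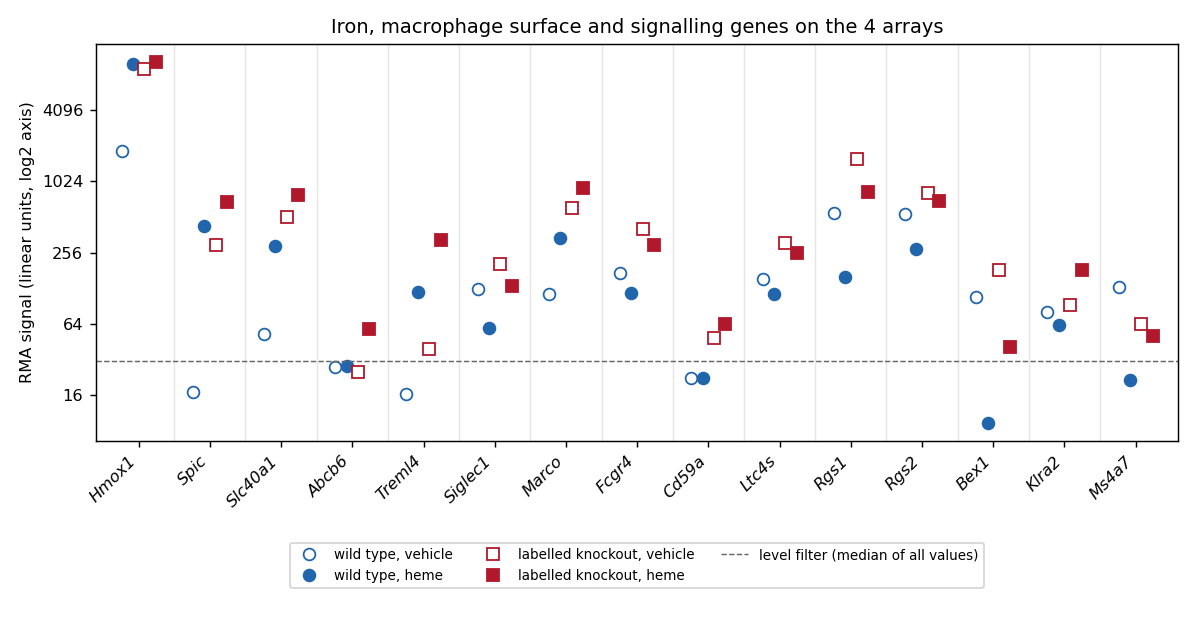
Signals on all 4 arrays (linear units on a log2 axis) for iron genes, macrophage surface genes and signalling genes, with symbols as in the plot of antigen presentation genes and a dashed line at the level threshold of 30.96. Hmox1 has 3 arrays close together and wild type with vehicle alone low, Slc40a1 and Marco have both squares on top, Rgs1, Bex1 and Siglec1 have the filled circle lowest, and Abcb6 and Klra2 have the filled square alone on top.

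Genes of lysosomes and proteasomes sat slightly above 0 as groups. All 23 lysosomal genes measured were at level, 21 lay above 0 with heme and the median was 0.20, with none at 2-fold. The largest were Lipa, the acid lipase that frees cholesterol, at 0.67 and Ctsk, a cysteine protease, at 0.66. All 31 proteasome subunits were at level, 28 lay above 0, the median was 0.16 with heme and -0.16 in vehicle, and the largest difference was 0.43 for Psmd7. In the other direction, 15 of 19 cholesterol synthesis genes and 18 of 22 genes of glycolysis and hypoxia lay below 0, with medians of -0.25 and -0.21. Idi1 and Hsd17b7, enzymes of sterol synthesis, differed by -0.93 and -0.92. The glycolysis and hypoxia genes had a median of 0.20 in vehicle, and Bnip3, a hypoxia-induced mitophagy gene, differed by 0.32 there and -0.48 with heme. Members of a pathway share regulation and are not independent, and these shifts have no replicate check.

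Of the lists, 12 of 39 had no member at 2-fold, among them type I interferon response, cell cycle, ribosomal proteins, respiratory chain and heat shock response, whose medians were 0.04, -0.01, -0.03, -0.03 and 0.09. The lists hold 716 measured genes, 580 of them at level, and the 2-fold calls among them were 14 higher and 43 lower. Shares over all genes at level were 0.519% higher and 0.973% lower.

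**Figure D5:**
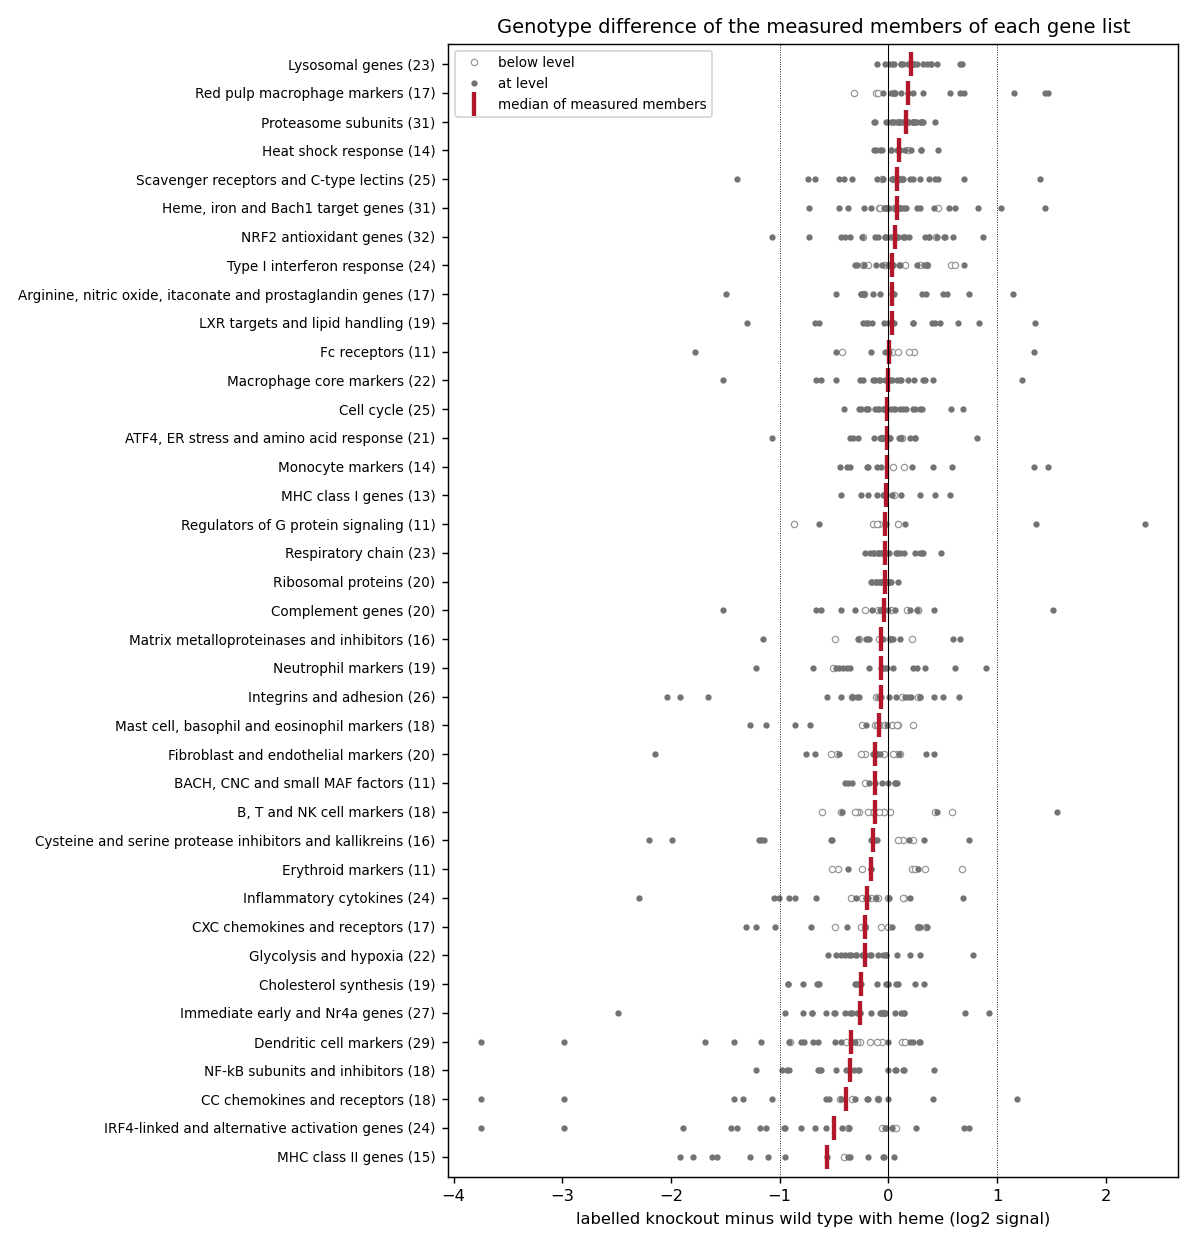
Each row is a gene list with its number of measured members, each dot a member's log2 difference of the labelled knockout minus wild type with heme (filled at level, open below), and the red bar the median over measured members. Medians run from 0.20 for lysosomal genes to -0.56 for MHC class II genes, and single members such as Ccl17, in 3 of the lists, lie far outside their list's median.

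Markers of other cells that such cultures can hold were read beside these groups, and their part in the results was not tested. For scale, 0.519% of all genes at level were higher with heme and 0.973% lower. Of 22 macrophage core markers, all at level, 1 was at least 2-fold higher (Ms4a7) and 1 lower (C1qc). Their summed signal was 28737 in wild type against 29934 in the labelled knockout with heme. In vehicle 5 of these markers were at least 2-fold lower and none was higher, against 1.14% lower over all genes. The vehicle sums were 32897 and 31519. Of 19 neutrophil markers 17 were at level, with sums of 15283 and 12486. Cxcr2 was the sole one called, Ly6g had 179 and 111 (-0.69), Retnlg differed by 0.90, and Elane and Ctsg were below level. Of 18 mast cell, basophil and eosinophil markers 6 were at level, and 2 of them were lower. The sums were 1697 and 926 with heme and 1653 and 1188 in vehicle. Prg2 and Epx, which encode the major basic protein and the peroxidase of eosinophil granules, had 1050 and 436, and 67.7 and 31.1, with heme, 2.41-fold and 2.18-fold lower (Epx 1.58-fold with 32 added). The mast cell and basophil genes Cpa3, Mcpt4 and Mcpt8 were below level.

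Among 14 monocyte markers 12 were at level, 2 were higher (Treml4 and Fcgr4), and the sums were 4964 and 4569. The shares over all genes at level were 0.519% higher and 0.973% lower. Among 18 markers of B, T and NK cells 3 were at level, the sums were 746 and 1014, and Klra2 was the one called, while Cd3e, Cd79a, Ms4a1, Ncr1 and Gzma were below level. Which cells gave the Klra2 signal was not measured, so its call does not show lymphoid cells. Erythroid markers had 4 of 11 at level and none called, with sums of 231.4 and 231.3. Of 20 fibroblast and endothelial markers 10 were at level, Ccn3 was the one called, and the sums were 2497 and 2667.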

How the data were processed

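Biotin-labelled cRNA made from total RNA was hybridised to mouse whole-transcript arrays. The deposited values are linear intensity, 1 value per probe set and array, after RMA, which the authors ran per the submitters' processing notes. RMA quantile-normalizes the arrays, so a shift of most genes at once would be removed. The series' design text is about sorted progenitors and a different RNA kit, at odds with the labels of these samples, which were used instead. The values come without detection calls or a genome build.

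Of 35556 probe sets, 21789 had a single gene symbol in the array annotation, 1621 several and 12146 were not listed. Of the single ones, 21698 were updated through their Entrez number in RefSeq, GRCm38.p6. The brightest probe set stood for each of the 999 genes with several. Differences are of log2 intensity between arrays, at level and at 2-fold or more, with no p-value. Named were Bach1, Spic, Hmox1, Vcam1, Slc40a1, the 15 largest increases and 15 largest decreases, every list member at 2-fold and up to 4 more of each list. The 5 largest genes in each direction that were called with heme alone, or in both conditions, were named too, and others are marked as picked later. This rule passed over predicted genes, clones, olfactory receptors, microRNA and small nucleolar RNA, 20 of the genes called, though the text names some of them. The 39 lists had 66 entries not analysed here. The comparison, its members and the lists were chosen with earlier results of these data known. Promoter windows ran from 250 bases before to 50 after each RefSeq start. The calls were tested on simulated data with 3-fold changes in genes well above the level threshold. That does not test calls near 2-fold or near the threshold. Alternatives were 1.5-fold and 3-fold rules, no level filter, one at the 75th percentile (a signal of 106), repeated quantile normalization, lowess centring, 32 added to each value, averaged probe sets and list medians over members at level. The JAK-STAT list, the dendritic marker sum without Ccl17 and Ccl22 and the X and Y box arrangement were added after seeing the data. Computation used Python 3.11.15 with matplotlib 3.10.9, statsmodels 0.14.6, pandas 2.3.3 and numpy 2.4.6.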

Additional observations from a re-analysis of the deposited data

Results flagged for a closer look

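For 3 genes at level in both conditions the genotypes were at least 2-fold apart one way with heme and at least 2-fold apart the other way in vehicle, which makes the pairs of arrays differ in sign. The difference between the pairs was not tested, since each group held 1 array. Ms4a7, a membrane protein of macrophages, had signals of 131 and 21.5 in wild type with vehicle and heme and 64.1 and 50.3 in the labelled knockout, so that the difference was -1.04 in vehicle and 1.23 with heme (1.54-fold with 32 added). Polr2k, a small subunit shared by RNA polymerases, had 47.6 and 30.2 against 22.2 and 64.2, with -1.10 in vehicle and 1.09 with heme (1.55-fold with 32 added). Phtf1os, an antisense transcript, had 21.0 and 33.2 against 43.6 and 14.0, with 1.05 in vehicle and -1.24 with heme (1.42-fold lower with 32 added). Rny1, a small noncoding RNA, was below level in vehicle and also turned, from 1.13 there to -1.65 with heme. The signals of Polr2k and Phtf1os lie close to the level threshold on several arrays. An antisense probe set depends on the strand its probes read, which was not checked here.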

How the results depend on the processing

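No paired analysis was possible because each group holds 1 array, and leaving out an array ends the comparison. At 1.5-fold, 365 genes were higher, 370 lower and 218 shared with vehicle, and at 3-fold 5, 28 and 14, against 56, 105 and 66 at 2-fold. With 32 added to every value the counts were 12, 49 and 35, and with the 75th percentile filter 20 were higher and 68 lower. The counts without a filter, with repeated quantile normalization, with lowess centring and with averaged probe sets stayed within 1.5 times of these. Of the 69 named genes called, 68 stayed at 2-fold under quantile normalization, 69 under lowess centring, 69 with the mean of probe sets and 40 with 32 added, and none changed sign under these 4 settings. With 32 added, the fold was over 1.5 times smaller for 12 of them, so low signals limit the size of those folds. A list's median changed sign for 1 list under quantile normalization and 1 with the mean of probe sets. Taken over members at level, the median changed sign for 3 lists: B, T and NK cell markers (-0.13 to 0.45), regulators of G protein signalling (-0.03 to 0.15) and Fc receptors (0.005 to -0.10). It also moved for protease inhibitors and kallikreins (-0.14 to -0.52) and for mast cell, basophil and eosinophil markers (-0.09 to -0.79).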

Other observations

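Genes outside the lists, all picked after their values were seen, carried some of the larger differences. Plet1, a surface protein of skin and some myeloid cells, had 1400 and 1074 in wild type with vehicle and heme and 317 and 345 in the labelled knockout. Car4, a membrane carbonic anhydrase, had 1617 and 2174 against 810.1 and 807, and Ifitm1, an interferon-induced membrane protein, 3119 and 3126 against 848 and 1395. Malt1, a protease of the NF-kB pathway, had 585 and 537 against 262 and 219.6, and the RNA-binding regulators Zfp36l1 and Zc3h12c, which shorten the life of cytokine transcripts, differed by -1.19 and -1.16 with heme. All 6 were also lower in vehicle by at least 2-fold, except Car4 at 1.995-fold. On the higher side, Dhrs3, a retinal reductase, had 982 and 548 in wild type and 1436 and 1132 in the labelled knockout, with 1.05 with heme and 0.55 in vehicle. Penk, which encodes enkephalins, had 24.0 and 26.5 against 50.2 and 62.0, with 1.23 with heme (1.61-fold with 32 added) and 1.06 in vehicle.

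Of the 161 genes called, 11 were probe sets of small RNA. Mir202 had the largest increase of the comparison, 2.93, with signals of 5.2 and 4.9 in wild type and 14.5 and 37.2 in the labelled knockout (1.88-fold with 32 added). Mir32 had 12.5 and 68.7 against 17.4 and 13.7, a difference of -2.33, 5.03-fold lower or 2.21-fold with 32 added. Rny1, a small noncoding Y RNA, had 10.5 and 38.1 against 23 and 12.1, 3.15-fold lower with heme (1.59-fold with 32 added) and below level in vehicle. MicroRNA probe sets of whole-transcript arrays are not made to read mature microRNA. The signals of Mir202, Mir32 and Rny1 lay below the level threshold on most arrays. Mir692-1, picked after its values were seen, was bright, with 2389 and 2074 in wild type against 5551 and 4805 in the labelled knockout. It was 2.32-fold higher both with heme and in vehicle.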
